A study of Mus musculus with 24 samples.

Results

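The cytosolic ribosomal protein genes were taken as every gene symbol of the PAPERCLIP count tables that begins Rpl or Rps followed by a digit, together with Rplp0, Rplp1, Rplp2 and Rpsa, leaving out the Rps6k kinases and pseudogene symbols that contain -ps. The rule found 88 genes of the 23871 listed, and all 88 were matched to Ensembl identifiers in the RNA-seq tables, which list 47069. Of these, 46 encode proteins of the large subunit, 31 encode proteins of the small subunit, 10 are paralogs or retro copies, and 1, Rps19bp1, encodes a protein that binds Rps19 and is not itself a ribosomal protein. The 88 genes lie on 19 chromosomes, with at most 14 on any of them, chromosome 7.

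A ribosome is built from a small subunit, which reads the mRNA, and a large subunit, which joins amino acids, and each holds ribosomal RNA and a set of proteins that are made in near equal numbers. In mammals the mRNAs of most ribosomal proteins and of several translation factors begin with an unbroken run of C and T (pyrimidines), the terminal oligopyrimidine tract, through which the mTORC1 kinase pathway and the RNA-binding protein Larp1 adjust their translation and stability together. Microglia are the resident macrophages of the brain, and bacterial lipopolysaccharide (LPS) given outside the brain is a standard way to activate them.

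The series holds 24 mouse libraries. PAPERCLIP crosslinks mRNA to the poly(A)-binding protein (PABP) and sequences the fragments next to the poly(A) tail, so a gene is read at its 3′ end only. In the cTag form the tagged PABP (Ctag-PABP) is made only where a Cre recombinase acts, and tagged RNA is pulled down with antibodies to GFP. All tagged mice carried Ctag-PABP and a Cre line: Cx3cr1-Cre (the promoter of a chemokine receptor of microglia and other myeloid cells) with LPS (3 libraries of brain), with PBS (phosphate-buffered saline, 3 libraries of brain) or untreated (2 libraries of brain); Gfap-Cre (an astrocyte promoter that is also active in neural progenitors), Camk2a-Cre (excitatory neurons) and Gad2-Cre (inhibitory neurons), with 2 libraries of cortex each. A liver PAPERCLIP library, labelled CL57/B6J, stands alone. RNA-seq was made from microglia of adult wild-type C57BL/6 mice, sorted with CD11b beads after 2 brains were put into each tube, 3 libraries after LPS (1 mg/kg injected into the abdomen daily for 4 days) and 3 after PBS, and from E18.5 cortex of Ptbp2-KO mice (3 libraries). For the PAPERCLIP mice the sources used here name neither the LPS dose and schedule nor any age.

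Depth differed widely. Assigned counts ran from 679115 to 1041245 in LPS and from 266330 to 337770 in PBS Cx3cr1 PAPERCLIP, were 133456 and 154959 in the untreated pair, ran from 630475 to 2005627 in the cortical groups, and ran from 1250170 to 2133407 in LPS and from 1254076 to 2019896 in PBS microglial RNA-seq. The 10 microglial markers made up 2.76 to 4.25% of each of the 8 Cx3cr1 libraries, against 0.00344 to 0.0108% of the 6 cortical ones. PBS replicate 3 of PAPERCLIP stood apart in its neuronal markers, with 0.316% of counts, where the other 7 Cx3cr1 libraries had 0.0415 to 0.0623%, and in its hepatocyte markers, with 0.255%, where the other 7 had 0.0443 to 0.0714%. Replicates 3 of LPS and of PBS PAPERCLIP carry another file prefix than replicates 1 and 2. In microglial RNA-seq the prefixes of replicates 1 to 3 were F3, F4 and M7 after LPS and F1, F2 and M5 after PBS. What the letters stand for is not stated. In bulk libraries such as all of these, fewer cells of a type and less RNA per cell cannot be told apart.

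Where the genes start is shown first, since the tract that ties these mRNAs together lies there. RefSeq promoter windows (build GRCm38.p6) were available for 67 of the 88 genes. Each line below runs from 50 bases before to 20 bases after a RefSeq start, and capitals mark every run of 8 or more C or T on the coding strand between 20 bases before and 20 bases after the start. The first 4 lines belong to genes with large changes under LPS in microglial RNA-seq, the next 2 to other members described in the results, and the last 2 to paralogs that did not pass the test there.
Rps26: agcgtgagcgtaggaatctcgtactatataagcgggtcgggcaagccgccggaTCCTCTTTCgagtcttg
Rpsa: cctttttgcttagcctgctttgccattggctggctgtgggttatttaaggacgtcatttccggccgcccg
Rpl35: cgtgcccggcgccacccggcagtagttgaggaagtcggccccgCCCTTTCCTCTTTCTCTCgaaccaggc
Rpl39: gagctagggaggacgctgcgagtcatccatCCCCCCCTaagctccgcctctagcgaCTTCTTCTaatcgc
Rps9: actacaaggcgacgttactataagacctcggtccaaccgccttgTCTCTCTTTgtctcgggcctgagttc
Rplp0: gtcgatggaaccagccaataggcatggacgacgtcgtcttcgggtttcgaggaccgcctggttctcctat
Rps27l: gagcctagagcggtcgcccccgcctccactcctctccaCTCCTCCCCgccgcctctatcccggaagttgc
Rpl7l1: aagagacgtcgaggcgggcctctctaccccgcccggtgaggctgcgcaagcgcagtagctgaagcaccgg

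The windows lie at chr10:128626487-128626556 (Rps26, minus strand), chr9:120127716-120127785 (Rpsa, plus), chr2:39005112-39005181 (Rpl35, minus), chrX:37085203-37085272 (Rpl39, minus), chr7:3703991-3704060 (Rps9, plus), chr5:115559417-115559486 (Rplp0, plus), chr9:66946036-66946105 (the first of 2 starts of Rps27l, plus) and chr17:46782637-46782706 (Rpl7l1, minus). The run of Rpl35, 18 bases long, spans its start, while that of Rps26, 9 bases long, begins just after it. The run of Rps27l and the first run of Rpl39 end before the start, and so lie outside the annotated mRNA. A run of 8 or more C or T, whether before or after the start, was found in 30 of the 67 genes with a window (44.8%). It was found in 18.4% of the 27025 genes of the whole table. The letters GGAAGT on either strand, looked for over the whole 300 bases, were found in 32 of the 67 genes (47.8%), against 26.5% of all genes. The letters TATAAA between 50 bases before the start and the start were found in 1 gene, Rpl22l1 (1.49%), against 3.15% of all genes. These motifs were chosen after the sequences were seen, matches describe letters and not sites in use, and the absence of a run in Rpsa and Rplp0 says only that these letters are not in these windows.

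The genes together took a larger share of counts in microglia than in the cortical cell types, and in RNA-seq the share after LPS was about 2.07 times that after PBS. In Cx3cr1 PAPERCLIP the 88 genes summed to 2.97, 3.47 and 4.10% of all counts after LPS, to 3.29, 2.88 and 3.25% after PBS, and to 3.25 and 2.73% in untreated mice. The 3 groups overlapped. In cortex they summed to 0.849 and 0.740% in Gfap, 0.615 and 0.698% in Camk2a, and 0.673 and 0.615% in Gad2 libraries. Liver had 0.494% (exact binomial 95% interval 0.455 to 0.536%, which covers counting error only).

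In microglial RNA-seq the sums were 2.22, 2.06 and 2.03% after LPS, against 1.01, 1.01 and 1.03% after PBS, so the groups were far apart relative to the spread within them. Ptbp2-KO cortex, whose RNA was depleted of ribosomal RNA rather than selected by poly(A), had 1.94, 1.85 and 1.98% and is not compared with them. The mean share after LPS was 1.12 times that after PBS in PAPERCLIP, and 1.28 times once the most abundant member of each library, Rplp1 in every Cx3cr1 library, was left out.

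**Figure D1:**
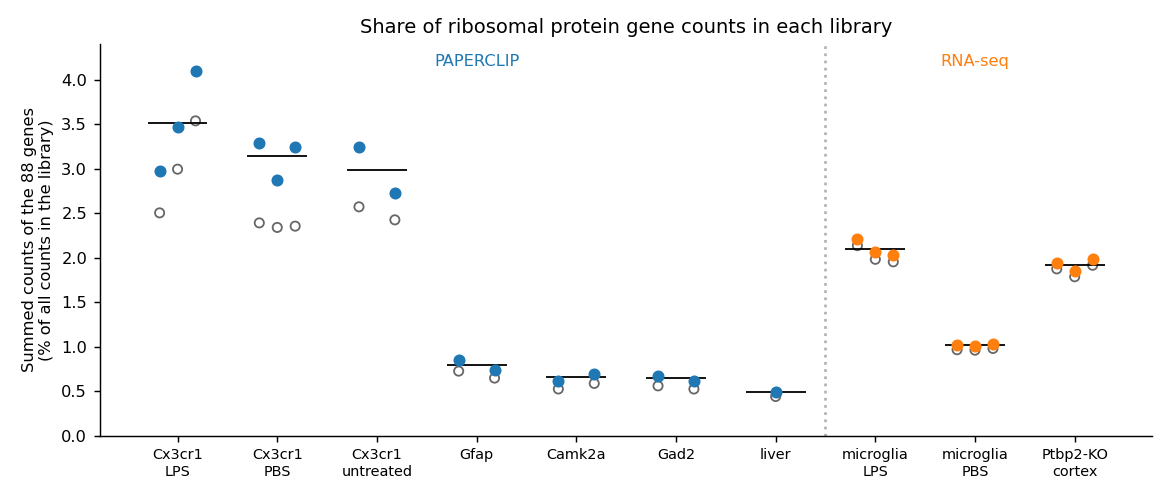
Summed counts of the 88 genes as a percent of all counts in each library (filled points, blue PAPERCLIP and orange RNA-seq), the same without the most abundant member (open circles), and group means (lines). The 8 Cx3cr1 libraries lie between 2.73 and 4.10%, above every cortical library and liver, and the 3 LPS libraries of RNA-seq lie at 2.03 to 2.22%, above the 3 PBS libraries.

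The sums of the subunits in Cx3cr1 PAPERCLIP are given apart, with no test of their difference. Small subunit genes summed to 1.44, 1.76 and 2.13% of counts after LPS and to 1.33, 1.34 and 1.37% after PBS, with no overlap. Large subunit genes summed to 1.48, 1.67 and 1.92% after LPS and to 1.92, 1.51 and 1.84% after PBS, which overlap. Rplp1, the acidic stalk protein that helps draw elongation factors to the large subunit, made up 13.6 to 15.8% of all counts of the 88 genes after LPS and 18.6 to 27.5% after PBS.

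The counts of the 2 assays fell on different members. In PAPERCLIP counts were concentrated: the 10 members with the most counts held 56.2 to 73.9% of the members' counts in the 14 brain libraries, while in the 6 microglial RNA-seq libraries they held 27.6 to 29.6%. The 5 with the most PAPERCLIP counts over the 14 brain libraries were Rplp1 (28449 counts), Rps24 (21450), Rps15a (13105), Rpl13 (11782) and Rps10 (9730). The 5 with the most RNA-seq counts in microglia were Rpl4 (6352 counts), Rps3 (5012), Rps9 (4975), Rpl13a and Rplp0. RNA-seq counts are not divided by transcript length here, so this is an order of counts and not of transcript number.

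Many genes with ample RNA-seq counts were nearly absent from PAPERCLIP. Summed over the 14 brain PAPERCLIP libraries, 23 members had fewer than 50 counts, and 18 of those had 500 or more counts in the 6 microglial RNA-seq libraries. Rpl28, a large subunit protein, had 0 PAPERCLIP counts in brain and 1219 RNA-seq counts. Rpl10a had 2 and 1363, and Rps27, a small subunit zinc finger protein, had 5 and 1738. The ratio of the mean PAPERCLIP CPM (counts scaled to a common library total) to the mean RNA-seq CPM after PBS ran from 0.00983 for Rps27 to 29.1 for Rps24 over the 82 members with counts in both. Across the 88 members the 2 levels had a Spearman correlation of 0.28, a description over genes that share libraries, depth and base composition.

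Several counts are uncertain for reasons of annotation. Rps27 and its retro copy Rps27rt had identical counts in all 15 PAPERCLIP libraries, at most 3 in any, while RNA-seq gave Rps27rt none. Rpl10l and Rpl3l, copies that other tissues (testis and striated muscle) are known for, had 0 PAPERCLIP counts in brain, and 0 and 3 RNA-seq counts in microglia. Rpl24, a large subunit protein that overlaps Zbtb11 in the RefSeq annotation, had 3 and 5 counts. Rpl39l, a copy of Rpl39 best known from testis, had 59 and 14 counts. Rps4l is annotated as a transcribed pseudogene inside Tmtc1, and how reads were assigned is not stated, so its reads and those of Tmtc1 cannot be told apart.

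**Figure D2:**
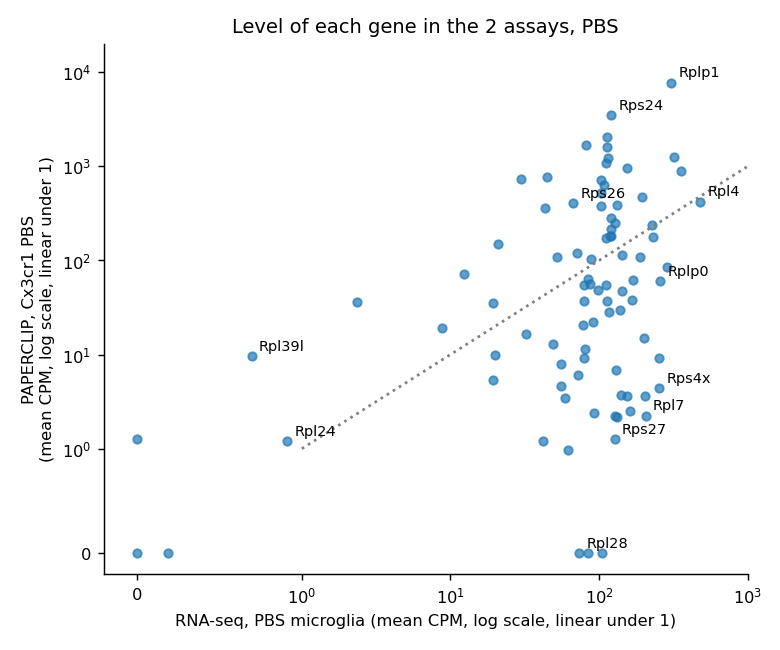
Mean CPM of each of the 88 genes in PBS microglial RNA-seq (x axis) and in PBS Cx3cr1 PAPERCLIP (y axis), both on a log scale that is linear under 1. Points lie far to both sides of the dotted line of equal values, from Rps27 and Rpl28 under it to Rplp1 and Rps24 above it.

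Between cell types, the genes were higher in untreated Cx3cr1 microglia than in the 3 cortical groups almost throughout. Of the 59 members that passed the filter on low counts, 50 rose and 0 fell at an adjusted p of 0.05 (edgeR quasi-likelihood test, Benjamini-Hochberg adjustment over all genes tested), against 21.8% of all genes tested that rose and 28% that fell. The median log2 difference was 2.26 over the members and -0.48 over all genes tested. Of the large subunit genes, 30 of 34 tested rose, and of the small subunit genes 17 of 19. Because brain was used for Cx3cr1 and cortex for the rest, a difference of cell type and one of region cannot be told apart. The prefixes split the same way. Both untreated Cx3cr1 libraries carry B5p10, while the Gfap libraries carry B7p75 and B7p78, Camk2a B7p5 and B7p7, and Gad2 B7p55. What the prefixes stand for is not stated, so any difference they mark cannot be told apart from cell type either. Hepatocyte markers made up 0.0503 and 0.0652% of the untreated Cx3cr1 counts, against 0.000709 to 0.0072% in the cortical libraries, and 1 of 2 tested rose. Erythroid markers made up 0.00645 and 0.018%, against 0.00021 to 0.000818%, with 1 of 1 tested higher, and neutrophil and monocyte markers 0.00516 and 0.0112%, against 0 to 0.00179%, with 1 of 2 higher. The part of these cells in the result was not tested.

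Rplp0, the stalk protein that anchors Rplp1 and Rplp2 to the large subunit, had 87.2 and 139 normalised CPM in untreated Cx3cr1 libraries, against 0 and 3.68 in Gfap, 4.83 and 7.51 in Camk2a, and 3.08 and 4.93 in Gad2 libraries. Its log2 difference was 4.77 (SE 0.51, adjusted p = 3.04e-07). Rpl12, a large subunit protein at the base of the stalk, had 305 and 484 normalised CPM in Cx3cr1, against 10.1 and 9.20 in Gfap, 19.8 and 21.5 in Camk2a, and 9.23 and 8.87 in Gad2 libraries, a log2 difference of 5.01 (SE 0.27, adjusted p = 1.59e-11). In both genes every Cx3cr1 library lay above every cortical one.

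The stalk partner Rplp1 had 7622 and 2980 normalised CPM in Cx3cr1, against 1329 and 753 in Gfap, 875 and 1010 in Camk2a, and 829 and 667 in Gad2 libraries, so that the 2 Cx3cr1 libraries differed by more than the cortical groups did from each other. Its log2 difference was 2.56 (SE 0.28). Rps26, which sits at the exit of the mRNA channel on the small subunit, had 371 and 859 in Cx3cr1, 89.4 and 109 in Gfap, 50.2 and 66.6 in Camk2a, and 101 and 80.8 in Gad2 libraries, a log2 difference of 2.92 (SE 0.26). Rpl32, a large subunit protein, had 2034 and 1204 in Cx3cr1, 450 and 348 in Gfap, 455 and 418 in Camk2a, and 555 and 329 in Gad2 libraries, a log2 difference of 1.93 (SE 0.24). The 3 were past the threshold and their groups did not overlap.

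Other large differences belonged to genes with few counts in cortex. Rpl27 had 1293 and 374 in Cx3cr1, against 56.3 and 14.1 in Gfap, 2.90 and 24.5 in Camk2a, and 4.61 and 1.97 in Gad2 libraries, a log2 difference of 6.26 (SE 0.51). Rps23, which lies near the decoding centre, and Rpl34 had log2 differences of 3.95 (SE 0.59) and 3.78 (SE 0.31).

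The remaining 9 members tested did not pass. Rps4l (log2 difference -0.07, SE 0.44), Rps27l (0.48, SE 0.77) and Rps19bp1 (0.67, SE 0.79) were among them. By group mean, 57 of the 59 members were highest in untreated Cx3cr1, Rps27l was highest in Gfap and Rps4l in Gad2. The share of all genes tested that was highest in untreated Cx3cr1 is not given here. Its libraries were also the shallowest of this fit, with 154959 and 133456 counts. Of the 5 paralogs or retro copies tested 3 rose. Rpl36al, Rpl7l1 and Rpl37rt had log2 differences of 2.45 (SE 0.36), 2.66 (SE 0.85) and 7.94 (SE 0.76). Rpl37rt had 43.6 and 206 normalised CPM in Cx3cr1, against 0 to 1.23 in the cortical libraries.

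**Figure D3:**
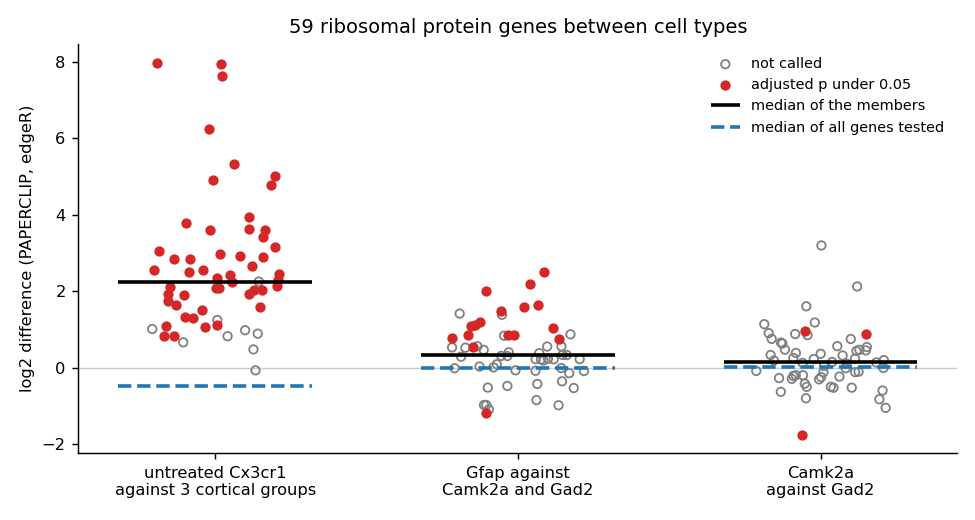
Log2 difference of each of the 59 members tested in 3 PAPERCLIP comparisons, red where the adjusted p is under 0.05, with the median of the members (black line) and of all genes tested (dashed blue line). The members' median is 2.26 for untreated Cx3cr1 against the cortical groups, 0.33 for Gfap against the neuronal groups and 0.15 for Camk2a against Gad2.

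Other genes of translation differed as well in microglia. Of 22 tested genes of elongation factors and other mRNAs with such tracts, 12 rose and 0 fell, with a median log2 difference of 1.12. Among them were Pabpc1, the poly(A)-binding protein itself (8.21, SE 0.68), and Tpt1 (6.24, SE 0.52). The mitochondrial ribosome, a separate particle with its own proteins, had calls in both directions: of 60 tested genes 5 rose, such as Mrpl52 (2.36, SE 0.47), and 12 fell, such as Mrpl3, which fell by 2.54 on the log2 scale (SE 0.43), with a median of -0.40. Of 29 ribosome biogenesis genes 3 rose and 2 fell, and of 15 genes of mTORC1 and tract control 6 rose and 3 fell.

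Gfap libraries set against the Camk2a and Gad2 libraries had members called in both directions. Of 59 members 16 rose and 1 fell, against 31.3% of all genes tested that rose and 29.3% that fell. The share that rose, 27.1%, is near that of all genes, and the median log2 difference was 0.33 against 0 over all genes. Of the large subunit genes 8 of 34 rose, and of the small subunit genes 7 of 19; without Gfap replicate 1, 10 members rose in all, where 27.4% of all genes tested rose. Oligodendrocyte markers moved with this comparison: 7 of 7 tested rose, their sum being 0.132 and 0.954% of counts in the Gfap pair and 0.0305 to 0.039% in the neuronal libraries; their part in the result was not tested.

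Of the 6 largest rises 4 were in small subunit genes. Rps15a had 948 and 696 normalised CPM in Gfap, 330 and 390 in Camk2a, and 212 and 176 in Gad2 libraries, so the 3 cell types fell in separate ranges, and its log2 difference was 1.63 (SE 0.24, adjusted p = 7.57e-06). Rps9 had 239 and 218 in Gfap, 78.2 and 70.1 in Camk2a, and 111 and 68.0 in Gad2 libraries, with the Gfap pair above the rest (1.50, SE 0.23, adjusted p = 1.22e-05). Rps6, the target of the S6 kinases, had 13.0 and 16.6 in Gfap, 2.90 and 1.50 in Camk2a, and 1.54 and 3.94 in Gad2 libraries (2.52, SE 0.49). Rps23 rose by 1.58 on the log2 scale (SE 0.58), and Rpl27 by 2.20 (SE 0.80) with overlapping groups.

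The paralog Rps27l, known as a target of p53, had 27.4 and 36.8 normalised CPM in Gfap, 6.76 and 4.51 in Camk2a, and 6.15 and 15.8 in Gad2 libraries, and rose by 2.00 on the log2 scale (SE 0.36, adjusted p = 9.48e-05). Rps4l fell by 1.19 (SE 0.26), with 31.7 and 23.3 normalised CPM in Gfap, 34.3 and 31.5 in Camk2a, and 93.8 and 126 in Gad2 libraries. Its Gfap and Camk2a values overlapped, and the Gad2 pair was high. Rplp0 (-0.97, SE 0.73), Rplp1 (0.31, SE 0.32), Rpl32 (-0.14, SE 0.27) and Rps26 (0.47, SE 0.27) did not pass the test. In the other lists, 22 of 60 mitochondrial ribosome genes rose and 3 fell, with Mrps23 at 2.13 (SE 0.22), and 6 of 22 elongation and tract genes rose and 1 fell. Vim, an intermediate filament gene of astrocytes, led that list with 7.80 (SE 0.35), followed by Eef1d, a subunit of the elongation factor 1 complex, with 1.96 (SE 0.27).

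Few members passed the test between excitatory and inhibitory neurons. Of 59 members 2 rose and 1 fell in Camk2a against Gad2 libraries, where 11.6% of all genes tested rose and 9.6% fell, and the median log2 difference was 0.15, against 0.03 over all genes tested. Rps15a, with the values above, rose by 0.90 (SE 0.29, adjusted p = 0.0344). Without any one of these 4 libraries 0 members were higher.

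Rps4l fell by 1.75 on the log2 scale (SE 0.25, adjusted p = 3.43e-05), with 34.3 and 31.5 normalised CPM in Camk2a and 93.8 and 126 in Gad2 libraries. In the other lists Larp1 fell by 0.84 (SE 0.25) and Eef1e1, a scaffold protein of the multisynthetase complex, by 0.87 (SE 0.23). Of the elongation and tract genes 0 of 22 rose, 1 of 60 mitochondrial ribosome genes fell and 1 of 29 biogenesis genes, Ubtf, rose.

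In isolated microglia nearly the whole group was higher after LPS. Of the 82 members that passed the filter in RNA-seq, 78 rose and 0 fell, against 15.9% of all genes tested that rose and 10.4% that fell. The median log2 difference, LPS over PBS, was 1.15 over the members, a fold of 2.22, and -0.02 over all genes tested. All 45 large subunit genes tested rose, by 0.55 to 1.67, and all 31 small subunit genes rose, by 0.90 to 1.72. In each of the 78 genes, which were picked by the test on these same libraries, the 3 LPS libraries lay above the 3 PBS libraries.

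Rps26 had 224, 199.96 and 224 normalised CPM after LPS, against 68.2, 67.6 and 60.9 after PBS. It had the largest change of the group, 1.72 on the log2 scale (SE 0.10, adjusted p = 1.46e-06). Rpl32 had 424, 332 and 319 after LPS, against 109, 112 and 116 after PBS, a change of 1.67 (SE 0.12). Rpsa, the small subunit protein also known as the laminin receptor, had 383, 399 and 332 after LPS and 129, 120 and 103 after PBS, a change of 1.66 (SE 0.11). In all 3 genes every LPS library lay far above every PBS library.

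The next 3 by size were large subunit genes. Rpl35, which sits at the exit of the peptide tunnel, had 61.1, 65.4 and 54.4 normalised CPM after LPS and 21.3, 19.4 and 17.4 after PBS (1.64, SE 0.16). Rpl39, which lines the tunnel, had 98.7, 70.7 and 91.3 after LPS and 23.7, 28.7 and 34.8 after PBS (1.57, SE 0.18). Rpl41, the shortest ribosomal protein, had 151, 126 and 147 after LPS and 53.4, 48.1 and 41.9 after PBS (1.55, SE 0.13). The stalk proteins Rplp0 and Rplp1 rose by 1.44 (SE 0.09) and 0.86 (SE 0.09): Rplp0 had 736, 692 and 622 after LPS and 261, 249 and 246 after PBS, and Rplp1 had 577, 526 and 526 after LPS and 310, 321 and 270 after PBS.

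The 4 members that did not pass the test were 3 paralogs and the non-ribosomal Rps19bp1. Rpl7l1, a relative of Rpl7, had 53.5, 64.4 and 62.8 normalised CPM after LPS and 82.1, 68.3 and 76.7 after PBS, lower in every LPS library, with a log2 difference of -0.33 (SE 0.13, adjusted p = 0.0718). Rps27l had 22.2, 27.8 and 14.2 after LPS and 18.8, 24.1 and 14.1 after PBS (0.24, SE 0.27), and its groups overlapped. Rps4l stood at -0.55 (SE 0.38) and Rps19bp1 at -0.05 (SE 0.31). The paralogs Rpl22l1 (0.79, SE 0.20) and Rpl36al (0.88, SE 0.19) rose.

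**Figure D4:**
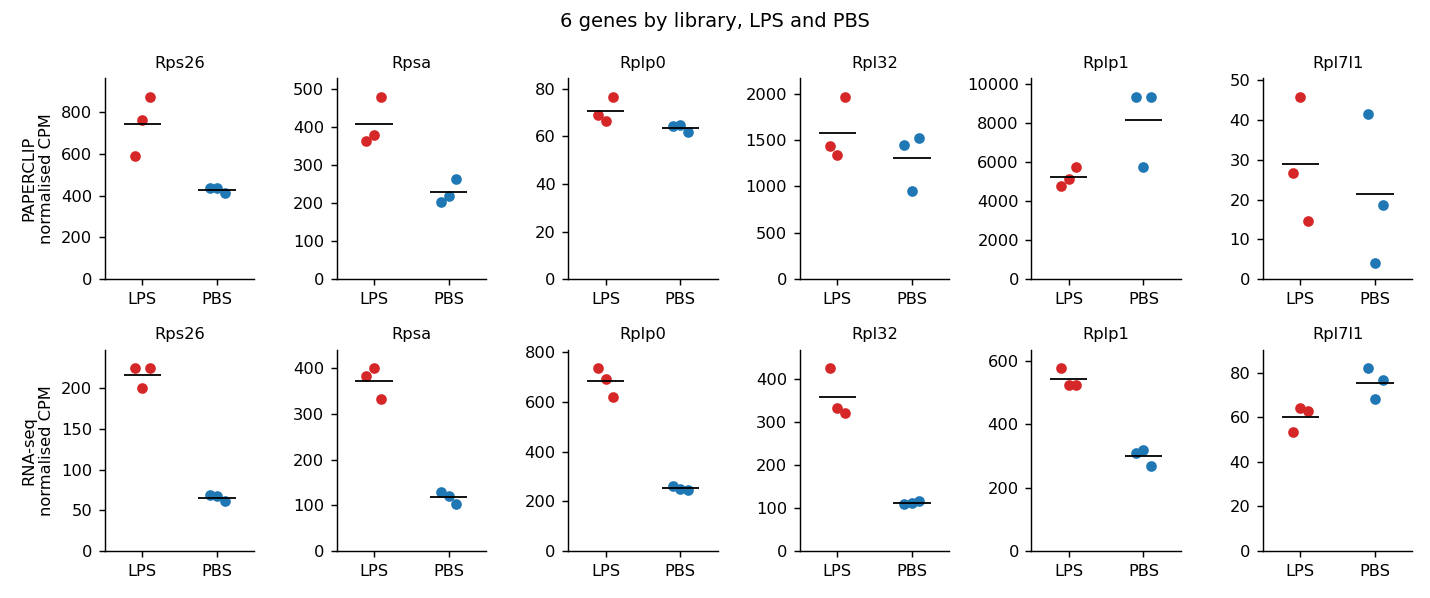
Normalised CPM of 6 genes in each library after LPS (red) and PBS (blue), PAPERCLIP above and RNA-seq below, with group means as lines and every axis from 0. Rps26 and Rpsa are higher in every LPS library in both assays, and Rplp1 is higher in every LPS library of RNA-seq, while in PAPERCLIP its highest LPS and lowest PBS values are nearly level.

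Most elongation and tract genes rose as well, and few genes of the other lists did. Of 22 of the elongation and tract genes 20 rose and 0 fell, with a median log2 difference of 1.01: Vim by 1.90 (SE 0.12), Pabpc1 by 1.38 (SE 0.09) and Eif3f, a subunit of an initiation factor, by 1.33 (SE 0.09). Of 69 mitochondrial ribosome genes 2 rose and 2 fell, with a median of 0.03. Of 41 ribosome biogenesis genes 2 rose, Ncl by 0.64 (SE 0.09) and Pes1 by 0.42 (SE 0.14), and 6 fell, with Nop2, a nucleolar RNA methyltransferase, having fallen by 0.82 (SE 0.16) and Noc2l by 0.58 (SE 0.12). Of 20 genes of mTORC1 and tract control 2 rose, Max by 0.39 (SE 0.12) and Eif4a1, an RNA helicase of initiation, by 0.27 (SE 0.08).

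Markers of other cells moved in the same libraries. The 8 T and NK cell markers summed to 0.0103 to 0.0207% of counts after LPS and 0.000799 to 0.00128% after PBS, and 3 of 3 tested rose; Cd3e, which defines T cells, was at 0 in 5 of the 6 libraries. The 8 neutrophil and monocyte markers summed to 0.0917 to 0.118% after LPS and 0.0166 to 0.12% after PBS, and 3 of 8 rose. The 6 erythroid markers summed to 0.000656 to 0.00168% after LPS and 0.0114 to 0.0129% after PBS, and 4 of 4 tested fell. Microglial markers summed to 2.76 to 3.30% after LPS and 4.12 to 4.14% after PBS, and hepatocyte markers to 0.151 to 0.19% after LPS and 0.181 to 0.774% after PBS. The part of these cells in the rise was not tested.

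In Cx3cr1 PAPERCLIP few members passed the test after LPS. Of 55 members that passed the filter 2 rose and 0 fell, against 2.74% of all genes tested that rose and 0.791% that fell. The share that rose, 3.64%, is near that of all genes in this fit, which left replicate numbers out. The median log2 difference was 0.28 over the members and -0.01 over all genes tested, and 48 of the 55 were above 0. With replicate numbers as a block, 6 rose, Rpsa, Rps26, Rpl18, Rpl6 and Rps9 among them, and 1, Rplp1, fell, where 4.53% of all genes tested rose and 2.9% fell; Rpl18, Rpl6 and Rps9 are named here after their values were seen. At an unadjusted p under 0.05, 11 members were higher and 1 lower, where 8.26% of all genes tested were higher and 7.55% lower.

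Rps26, the gene with the largest change in RNA-seq, had 587, 762 and 873 normalised CPM after LPS, against 437, 436 and 412 after PBS, a change of 0.79 (SE 0.20, adjusted p = 0.0436). Rpsa had 363, 379 and 480 after LPS, against 204, 218 and 263 after PBS, a change of 0.83 (SE 0.20, adjusted p = 0.0384). In both genes the groups did not overlap. The call of Rpsa was lost whichever of the 6 libraries was left out, and that of Rps26 was lost in each case but that of LPS replicate 1. Over the 15 alternatives run, the change of Rps26 was 0.63 to 0.94 (edgeR or DESeq2 adjusted p 0.00217 to 0.208) and that of Rpsa 0.70 to 0.96 (adjusted p 0.00208 to 0.147).

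Other members had groups that did not overlap without passing the test. Rps9 had 1518, 2129 and 2531 normalised CPM after LPS and 1289, 1429 and 1267 after PBS (0.63, SE 0.20, adjusted p = 0.125). Rpl36al had 239.9, 212 and 247 after LPS and 158, 157 and 152 after PBS (0.58, SE 0.19), and Rps27l 60.0, 72.7 and 59.6 after LPS and 45.2, 20.2 and 46.5 after PBS (0.74, SE 0.32). Of the 55 members tested, 9 were higher in every LPS library than in any PBS library, as were 11.7% of all genes tested.

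Rplp1 had 4801, 5144 and 5762 normalised CPM after LPS and 9365, 5766 and 9331 after PBS, so that LPS replicate 3 and PBS replicate 2 were nearly level. As a share of counts the groups overlapped, with 0.469, 0.479 and 0.559% after LPS and 0.9, 0.536 and 0.892% after PBS. Its log2 difference was -0.64 (SE 0.21, adjusted p = 0.125), and -0.61 (adjusted p = 0.0355) with the replicate block. Rplp0 had 68.8, 66.4 and 76.6 after LPS and 64.1, 64.6 and 61.9 after PBS (0.15, SE 0.24), and Rpl32 had 1434, 1343 and 1968 after LPS and 1444, 953 and 1517 after PBS (0.28, SE 0.22). Rpl27 was erratic, with 816, 1200 and 2.43 after LPS and 1022, 1195 and 223 after PBS.

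Of 23 elongation and tract genes, 1, Vim, rose in PAPERCLIP, by 1.55 (SE 0.29), and the list's median was 0.37. Mrpl45 rose by 1.27 (SE 0.30), as the only one of 37 mitochondrial ribosome genes past the threshold, and in RNA-seq it rose by 0.73 (SE 0.22). Neuronal markers summed to 0.0415 to 0.0609% of counts after LPS and 0.0522 to 0.316% after PBS, and hepatocyte markers to 0.0501 to 0.0714% after LPS and 0.0443 to 0.255% after PBS. Neutrophil and monocyte markers summed to 0.0244 to 0.0549% after LPS and 0.00435 to 0.00622% after PBS, and 1 of 2 tested, the integrin gene Itgal, rose. Without both replicates 3 no member passed, and the members' median was 0.16. That set has fewer libraries, which by itself can cost calls, and the part of these cells in the result was not tested.

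**Figure D5:**
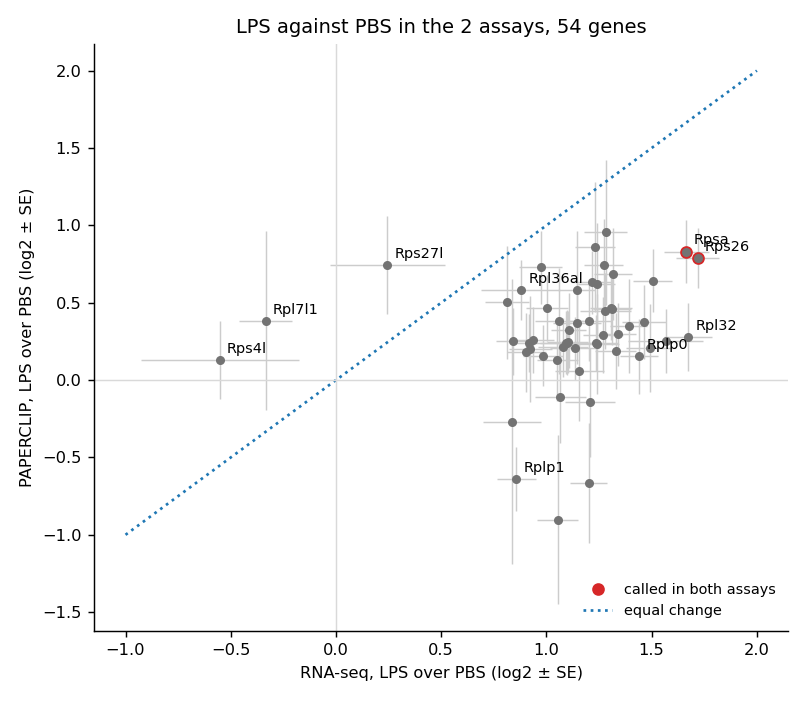
Log2 difference with its standard error, LPS over PBS, in RNA-seq (x axis) and PAPERCLIP (y axis) for the 54 members tested in both, with the line of equal change. In 51 of the 54 the RNA-seq change is the larger, with Rpsa and Rps26 (red) past the threshold in both assays and Rplp1 under 0 in PAPERCLIP.

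Set side by side, the PAPERCLIP change was smaller than the RNA-seq change in 51 of the 54 members tested in both assays, with medians of 0.28 in PAPERCLIP and 1.15 in RNA-seq. Both changes were above 0 in 46 of the 54. Across these genes the 2 changes had a Pearson correlation of 0.15 and a Spearman correlation of 0.29, given as a description. The assays share no libraries, but mice, sorting, dose information and the part of the mRNA that is read all differ between them.

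The difference in response was tested directly over 12 libraries. Of 84 members 0 passed in either direction (edgeR), where 0.00983% of all genes tested fell and 0% rose. Of the 84 differences, PAPERCLIP minus RNA-seq, 77 were below 0, with a median of -0.79 (0.04 over all genes tested). At an unadjusted p under 0.05 (edgeR), 45 were below 0 and 1 above, where 4.5% of all genes tested were below 0 and 4.53% above. Some of the 84 had too few PAPERCLIP counts to be tested for LPS there, such as Rpl28 with 0 in each library. PAPERCLIP gave little measure of a response in them. Over the 54 members tested in both assays 51 differences were below 0, with a median of -0.78. DESeq2 called 22 members lower in PAPERCLIP, and 2.19% of all genes it gave an adjusted p. A replicate block within each assay called 12 members and 0.384% of all genes tested lower, though RNA-seq replicate numbers were not taken to pair libraries. Rplp1 had a difference of -1.43 (SE 0.24, adjusted p = 0.0722 by edgeR), Rpl32 -1.33 (SE 0.27, adjusted p = 0.094) and Rplp0 -1.21 (SE 0.23, adjusted p = 0.0722). For Rps26 the difference was -0.86 (SE 0.22, adjusted p = 0.176). The paralogs Rpl7l1 (0.78, SE 0.56) and Rps27l (0.57, SE 0.43) were on the other side of 0 and did not pass.

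Paralogs were also read as a share of the counts of the pair they form with their parent gene, for pairs with at least 20 counts in each library. Rpl7l1 made up 10.4, 13.3 and 13.1% of the counts of Rpl7l1 and Rpl7 in RNA-seq after LPS, against 26.4, 28.0 and 27.6% after PBS. The mean share was 12.2% ± 1.63 after LPS and 27.3% ± 0.847 after PBS (SD, n = 3 each, exact two-sided permutation p = 0.1, the smallest this design allows). Rpl7 itself, a large subunit protein named as the parent of the pair, rose by 1.09 on the log2 scale (SE 0.10). In PAPERCLIP the pair had too few counts.

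Rps27l made up 8.36% ± 3.10 of its pair with Rps27 after LPS and 13.1% ± 2.45 after PBS (SD, n = 3 each, exact two-sided permutation p = 0.2). Rpl36al made up 24.1% ± 0.528 of its pair with Rpl36a after LPS and 27.3% ± 4.13 after PBS in RNA-seq (SD, n = 3 each, exact p = 0.4), and Rpl22l1 made up 13.9% ± 1.49 of its pair with Rpl22 after LPS and 14.9% ± 3.48 after PBS (SD, n = 3 each, exact p = 0.7). None of the 3 passed. Over the 11 pair tests of both assays the lowest adjusted p was 0.55.

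The assays gave different shares for the same pair. In Cx3cr1 PAPERCLIP, Rpl36al held 99.8% ± 0.283 of its pair after LPS and 97.0% ± 1.35 after PBS (SD, n = 3 each, exact two-sided permutation p = 0.1), with 581 counts of Rpl36al after LPS and 130 after PBS over the 3 libraries. Rpl22l1 held 3.60% ± 0.628 after LPS and 3.30% ± 2.88 after PBS (SD, n = 3 each, exact p = 1). Rpl39l held 2.06% ± 1.08 of its pair with Rpl39 after LPS and 1.25% ± 0.704 after PBS (SD, n = 3 each, exact p = 0.4). Some copies closely resemble their parents, so reads may be split between them.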

How the data were processed

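The authors deposited raw whole-number counts for every gene and library, which were used unchanged. PAPERCLIP reads went through cutadapt and Novoalign and RNA-seq reads through STAR, on mm10, per the submitters' processing notes; how reads were assigned to genes is not given in the sources used here. Members, gene lists and motifs were chosen with earlier results of these data known. Tests were quasi-likelihood fits in edgeR 4.0.16 (R 4.3.3) after filterByExpr and TMM scaling, with p-values adjusted by Benjamini-Hochberg across every gene in the fit and called at 0.05. The 3 cell type comparisons shared a fit of 8 untreated libraries, each LPS comparison used its own 6 libraries, and the difference in response used 12. Every adjusted p of a gene comes from edgeR unless DESeq2 is named. SE is that of the log2 change, and normalised CPM use TMM-scaled totals. Groups do not overlap where every library of the first lies to the same side of every library of the other. Only the Ptbp2-KO cortices are called biological replicates in the labels' protocols, so elsewhere the spread behind each p-value is between libraries and may be technical only. No replicate pair agreed within sampling noise (chi-square per degree of freedom 2.10 to 76.9).

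Replicate numbers were checked by the correlation of deviations from group means. Same-numbered LPS and PBS PAPERCLIP libraries correlated at 0.124, 0.258 and 0.191 over 5605 genes, so the numbers were taken to pair them, from the data alone. The main fit of that comparison left this pairing out, and the replicate block is given as an alternative. Named genes are Rplp0, Rplp1, Rpl32, Rps26, the paralogs and Rps19bp1, the 6 largest changes in each direction among called members whose average log2 CPM reached 3, the 5 members with the most and fewest counts per assay, and the 3 genes of smallest p per list and direction, of which some are not reported here. Alternatives were other scalings and filters, DESeq2 1.42.0, thinning, a replicate block and leaving out libraries. Paralog shares used an exact permutation test (scipy 1.17.1). Fits were tested on simulated data. Totals per library limit precision, and the interval for liver is exact binomial at 95%.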

Additional observations from a re-analysis of the deposited data

Results flagged for a closer look

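Rplp1 had a log2 difference below 0 after LPS in PAPERCLIP, where it did not pass the test, and rose in RNA-seq. In PAPERCLIP the LPS and PBS groups were apart by the scaling of those 6 libraries alone, with 5762 against 5766 normalised CPM in the nearest pair; by the scaling of all 12 libraries, with 6746 in LPS replicate 3 and 6581 in PBS replicate 2, and as a share of counts they overlapped. The difference in response, PAPERCLIP minus RNA-seq, was -1.43 on the log2 scale (SE 0.24, adjusted p = 0.0722 by edgeR, unadjusted p = 1.42e-05; DESeq2 adjusted p = 3.43e-06). Over the alternatives run it ran from -1.49 to -1.19.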

How the results depend on the processing

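The rise after LPS in RNA-seq and the higher level in untreated Cx3cr1 held under the alternatives run: 76 to 78 and 36 to 58 members were higher, the 36 being all of the 36 tested after thinning. Total-count scaling called 1 member lower in RNA-seq, and it moved the median of all genes to -0.13 there and to -0.21 in Gfap against neurons, where the members' median was 0.12. In Gfap against neurons, thinning left 9 higher and 0 lower, leaving out a library gave 10 to 21 higher and 1 to 2 lower, and the lower count was 2 with RLE scaling, the 5 CPM filter or DESeq2 and 3 with total counts. In Camk2a against Gad2, 4 were higher with no filter, 1 with the 5 CPM filter and 1 after thinning; 2 were lower with the 5 CPM filter and 0 after thinning; leaving out a library gave 0 to 3 higher and 1 to 3 lower. In PAPERCLIP LPS against PBS, no filter and the replicate block each gave 6 higher and 1 lower, thinning 1 higher, the set without replicates 3 0 higher, and leaving out a library 0 to 2 higher. For the difference in response, no filter and the replicate block each called 12 lower, DESeq2 22, the set without PAPERCLIP replicates 3 5, and leaving out a library 0 to 5. The cause was not tested. The members tested and the share of all genes called also change with the setting and are not given for each here. The counts in this paragraph are therefore not set against a background.

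In RNA-seq (same-number correlations 0.0992 to 0.188) and between cell types (0.0101 to 0.0818) the numbers were not taken to pair libraries; with the replicate block 16 members were higher in Gfap and 50 in Cx3cr1. Without the most abundant member the mean share was 0.687% in Gfap, 0.556% in Camk2a, 0.542% in Gad2, 2.50% in untreated Cx3cr1, 2.36% in PBS Cx3cr1, 0.441% in liver and 0.969% in PBS RNA-seq. Summed CPM without TMM were 6564.5 in Camk2a and 10170.8 in PBS RNA-seq.

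Signs turned in genes that had passed no test. Rpl32 in Camk2a against Gad2 was 0.011 with total counts, 0.038 with no filter and 0.036 with the replicate block. Thinning put Rplp0 at -0.065 there and at -0.025 in PAPERCLIP LPS, the block put Rps19bp1 at 0.0018 in RNA-seq, and Rpl22l1 had a difference in response of 0.30 without replicates 3. Leaving out a library gave, for Gfap, Rpl32 -0.35 to 0.044, Rpl36al -0.11 to 0.58 and Rplp1 -0.17 to 0.67; for Camk2a, Rpl32 -0.33 to 0.40, Rpl36al -0.92 to 0.46, Rpl7l1 -0.43 to 5.67 and Rps19bp1 -0.23 to 0.61; for Cx3cr1, Rps27l -0.90 to 1.00; for PAPERCLIP LPS, Rpl7l1 -0.042 to 1.22; for RNA-seq, Rps19bp1 -0.20 to 0.15 and Rps27l -0.013 to 0.45; and for the difference, Rpl22l1 -0.66 to 0.45 and Rps19bp1 -0.46 to 0.074. Pair shares moved likewise, in percentage points, for Rpl22l1 from -1.36 to 1.28 in PAPERCLIP and from -2.96 to 0.38 in RNA-seq, for Rpl39l from -0.82 to 1.75 and for Rpl3l from -0.0835 to 0.0906 in RNA-seq.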
